A study of Mus musculus with 2 samples.

Results

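Cycling thymocytes are immature T cells that are passing through the cell cycle, and 1000 of them were found among 13436 cells from injured mouse carotid arteries. They were chosen by raw UMI counts (unique molecular identifiers, each a counted transcript) in both single-cell libraries of the study. A cell was taken when it had at least 1 UMI of Rag1, Ptcra and Dntt together, at least 2 UMIs of Cd3d, Cd3e, Cd3g and Cd8b1 together, and at least 3 UMIs of Mki67, Top2a and Hist1h1b together. It also had to have 0 UMIs of Cd79a and at most 5 UMIs of C1qa, C1qb and C1qc together. At 2 weeks 777 of 5427 kept cells met the rule, 14.3% (exact binomial 95% interval 13.4 to 15.3%), and at 4 weeks 223 of 8009 did, 2.78% (2.44 to 3.17%). All intervals given here are at the 95% level and cover counting error only.

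The study profiled carotid arteries after wire injury, which strips the lining of the vessel and leads to thickening from within (intimal hyperplasia). Male C57BL/6J mice aged 8 weeks were used, 18 for each time by the design text, and their vessels were taken at day 14 or day 28. The adventitia was dissected away from the inner layers, the tissue was digested with papain, and live Hoechst-positive single cells were sorted for 10x Genomics libraries. There is 1 library for each time. Differences between times therefore have no replicate check, and no cell can be traced to a mouse. Both groups share strain, sex, age, injury and preparation, and uninjured vessels were not analysed here. The source label is the carotid artery, although the protocol for extraction mentions grafts of the aorta, and the injured side is given once as left and once as right. The labelled tissue is an artery, and how cells with a thymic programme came to be in it was not tested.

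Thymocytes first rearrange the T cell receptor beta gene in cells that carry neither Cd4 nor Cd8 (double negative). Cells with a working beta chain pair it with the pre-T cell receptor chain encoded by Ptcra, and signals from this receptor and from Notch start a burst of divisions during which Cd8 and then Cd4 appear. The burst ends in small, resting double positive cells that rearrange the alpha gene with the same recombinase, encoded by Rag1 and Rag2.

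The 2-week library held 5864 barcodes and 78773018 UMIs, and the 4-week library 8565 barcodes and 83753250 UMIs. Filters on genes, UMIs and mitochondrial share removed 437 and 556 barcodes. Of these, 29 and 6 met the gene conditions of the rule and were not counted as members. The libraries share 8 barcodes, and 0 of them are members in either library.

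The genes of the rule describe the members and are not findings. Dntt, the polymerase that adds bases at receptor gene joints, was seen in 99.0% of members at 2 weeks and 99.1% at 4 weeks. Rag1 was seen in 88.7 and 83.9% and Ptcra in 52.2 and 47.5%. All 3 genes were seen together in 47.5 and 42.6%, and only 13 and 6 members rested on 1 UMI of the trio. Mki67, Top2a and Hist1h1b, which encode a marker of dividing cells, the topoisomerase that untangles chromosomes and a linker histone, were all present in 80.3 and 81.6% of members. Since these genes chose the cells, they do not check the label on their own. As markers the rule did not use, Cd8a was seen in 90.1 and 86.5% of members and Cd4 in 63.3 and 60.99%. The rule does count Cd8b1, the gene of the other Cd8 chain, so Cd8a is not fully apart from it.

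Among the summed markers of other cell types, those of fibroblasts and then of effector T cells were highest in the members. The 8 fibroblast genes summed to 1668 CPM (CPM being a gene's UMIs scaled to a total of 1000000 in its cell group) at 2 weeks and 4743 CPM at 4 weeks, with none of the 8 at 0. This compares with 30210 and 30260 CPM in kept cells outside the thymocyte gate, and the median member was at 383.2 and 473.3 CPM. The 11 macrophage genes, which include C1qa, C1qb and C1qc, summed to 414.5 and 181.4 CPM, against 15840 and 3235 CPM outside the gate. Vpreb1, a surrogate light chain gene of B cell precursors, which also use Rag1 and Dntt, was at 1.52 CPM at 2 weeks and 3.02 CPM at 4 weeks. The summed B lineage list of 11 genes, which includes Cd79a, was at 29.1 and 89.7 CPM, against 469.7 and 1696 CPM outside the gate. Since the rule limits the C1q genes and sets Cd79a to 0, the macrophage and B lineage sums of members are low in part by the rule. The 8 thymic epithelial genes summed to 27.6 and 24.4 CPM, against 129.3 and 21.6 CPM outside the gate, so members were not lower at 4 weeks. Foxn1, the defining factor of those cells, had 0 UMIs in members of both libraries. The NK cell list summed to 29.9 and 13.3 CPM, against 659.9 and 208.4 CPM outside the gate. The dendritic cell list was at 10.2 and 29.6 CPM, against 117.2 and 112.9 CPM. The endothelial list was at 68.8 and 51.01 CPM, against 93.3 and 60.5 CPM. The list of gamma delta and innate-like T cells was at 75.6 and 74.6 CPM, against 296.6 and 168.1 CPM. The 15 effector T cell genes, which include Gzma, summed to 614 and 784.7 CPM, against 2302 and 2700 CPM. The erythroid list was at 419.5 and 49.8 CPM, against 1365 and 1503 CPM outside the gate. In it, 1 member held 94.7% of the Hbb-bs UMIs at 2 weeks. C1q UMIs, from genes that macrophages express, were in 66.8% of members at 2 weeks and 17.0% at 4 weeks, within the limit of the rule.

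The number of cells per UMI value fell across the limit on cycling UMIs, which is part of the rule, without a gap at the limit. Among all 1688 and 858 thymocytes (cells meeting the rule without its cycling condition), 33.2 and 58.7% had 0 UMIs of Mki67, Top2a and Hist1h1b, and 37.1 and 20.2% had 12 or more. At the limit, 45 and 10 members had exactly 3 UMIs and 22 and 6 had 4, with 87 and 36 thymocytes just outside at 2. The 28 DNA replication genes summed to 660.3 CPM at 2 weeks and 2299 CPM at 4 weeks in the members just inside, and to 1085 and 1070 CPM in the cells just outside. Members with 12 or more UMIs had 4452 and 4340 CPM. The 35 mitosis genes, which the rule did not use, summed to 1286 and 993 CPM just inside, 956.1 and 1164 CPM just outside, and 8439 and 8139 CPM at 12 or more UMIs. On both lists the 2-week members at the limit were closer to the cells outside it than to the members with 12 or more UMIs, and at 4 weeks the mitosis genes were lower just inside the limit than just outside it.

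**Figure D1:**
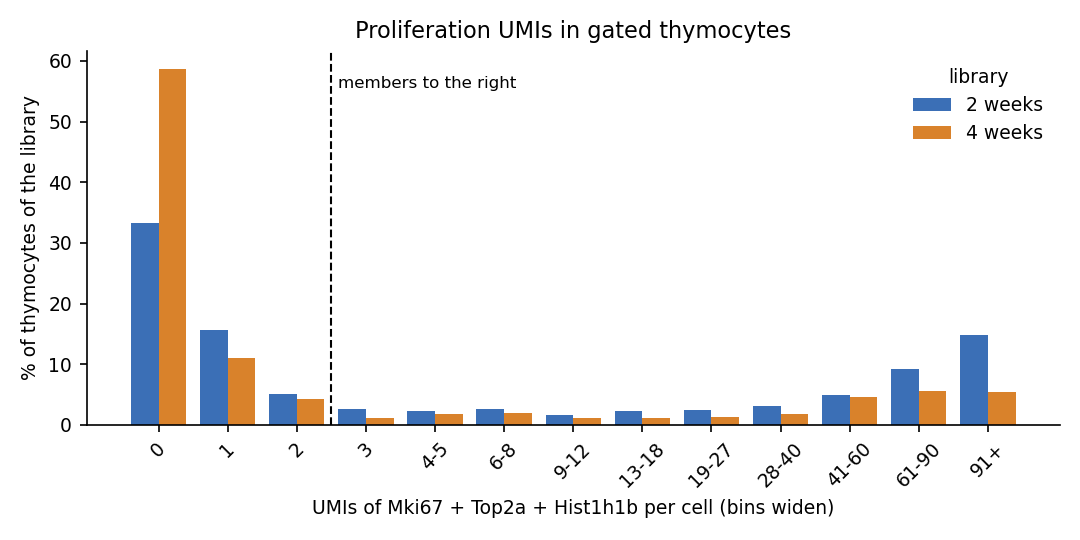
Percentage of thymocytes (y axis) in each bin of summed Mki67, Top2a and Hist1h1b UMIs per cell (x axis) in the 2-week and 4-week libraries, with the limit of 3 UMIs as a dashed line. The bins widen to the right, so the height of a bar is not a number of cells per UMI value. Most cells lie at 0 to 2 UMIs or in the wide bins far to the right of the limit.

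Members made up 46.0% of thymocytes at 2 weeks (43.6 to 48.4%) and 26.0% at 4 weeks (23.1 to 29.1%). After every thymocyte was thinned to 1800 UMIs, which left out 74 and 84 shallower cells, the shares were 33.8% (31.5 to 36.1%) and 19.2% (16.5 to 22.2%). Asking for 2 UMIs of Rag1, Ptcra and Dntt gave 47.7 and 28.3%. The share was thus lower at 4 weeks on each of these 3 counts, between 1 library and 1 library. Members were 79.2% of all kept cells that passed the cycling condition at 2 weeks and 37.5% at 4 weeks.

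Members held several times more UMIs than resting thymocytes. The members summed to 15742960 UMIs at 2 weeks and 3979856 at 4 weeks, which are the totals behind the CPM values. Their median was 16280 UMIs at 2 weeks (range 1932 to 66504) and 14350 at 4 weeks (1852 to 63304). Thymocytes with 0 UMIs of the 3 cycling genes, called non-cycling here (561 and 504 cells), had medians of 3329 and 2802 UMIs. The mean UMIs of members were 4.72 and 4.24 times the mean of non-cycling thymocytes. A deeper cell passes a UMI minimum more easily, so the rule itself takes part in this difference. Because of it, a gene can be lower in CPM, a share of the cell's UMIs, and still have more UMIs per cell, and both scales are given below.

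The contrast of members with non-cycling thymocytes is the one the rule divides on, so its values are a description. A gene was called when it differed at least 2-fold the same way in both libraries. Of 8529 genes with at least 50 UMIs in each library, 782 were higher in CPM (9.17%) and 1434 lower (16.8%). On UMIs per cell 6625 were higher (77.7%) and 8 lower (0.0938%). The median log2 ratio of all these genes was -0.33 and -0.28 in CPM, and 1.91 and 1.80 in UMIs per cell. With the CPM ratios centred on their median, 1181 genes were higher and 798 lower.

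Genes of DNA replication were higher in members almost throughout. Of 28 measured, 27 were called higher and 0 lower, with median log2 ratios of 2.73 and 3.04. Mcm5, part of the helicase that opens DNA for copying, was at 220.9 CPM in members and 11.6 CPM in non-cycling thymocytes at 2 weeks. At 4 weeks Mcm5 was at 220.1 against 8.49 CPM. Pcna, the clamp that holds the polymerase on DNA, was at 485.4 against 81.3 CPM and at 449.3 against 90.1 CPM. Rpa1, which coats single-stranded DNA, was the 1 replication gene under 2-fold in a library, with log2 ratios of 0.98 and 1.10. Cdc45, which joins the MCM ring at each origin, had log2 ratios of 6.37 and 5.84.

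The supply of nucleotides and histones followed the same direction. Of 14 nucleotide genes 13 were called higher, among them Rrm2, the regulated subunit of ribonucleotide reductase, at 324.0 against 7.05 CPM and 353.3 against 7.07 CPM. Dck, which salvages deoxycytidine, was the exception, with log2 ratios of -0.34 and 0.06. Of 19 histone and chromatin genes with enough UMIs, 17 were called higher, with median log2 ratios of 3.25 and 3.58. Hist1h3c was at 746.9 against 8.30 CPM at 2 weeks and 635.7 against 2.83 CPM at 4 weeks. Clustered histone genes are near-identical copies, so reads may be split or lost between them and single values are uncertain. Hist1h1b belongs to this list and to the rule.

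Mitosis genes showed the widest separation. Of 35 measured, 34 were called higher, with median log2 ratios of 4.93 and 4.94, and Smc4, a condensin subunit, missed the limit at 0.90 and 0.89. Ccnb1, cyclin B1, was at 136.3 against 2.08 CPM at 2 weeks and 134.2 against 0.472 CPM at 4 weeks. Cdk1, the kinase that cyclin B activates, was at 171.8 against 4.56 CPM and 189.2 against 1.42 CPM. Ube2c, which serves the anaphase-promoting complex, was at 681.8 against 16.6 CPM and 731.7 against 14.2 CPM. In both libraries each of these 3 genes was under 20 CPM in non-cycling cells.

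The promoters of the 2 gene groups differ in the short words they carry, and these are shown because replication and mitosis genes moved together here. In textbook terms E2F factors act on replication genes, while the cell cycle homology region (TTTGAA) and the box spelled CCAAT are common in promoters of mitosis genes. RefSeq promoter windows (GRCm38.p6, 250 bases before to 50 after each start) were searched on both strands for these words and for the E2F words TTTGGCGC or TTTCCCGC, and no match overlaps another in the stretches shown. Each line gives the 150 bases before the start, 5′ to 3′ on the strand of the gene, with all matches of the 3 kinds of word in capitals, a match on the other strand being written as its reverse complement. Kif11 (chr19:37376232-37376381, plus strand) encodes the motor that separates spindle poles and Smc2 (chr4:52439071-52439220, plus strand) a condensin subunit. Mcm5 (chr8:75109359-75109508, plus strand) is introduced above, and Pola1 (chrX:93632156-93632305, minus strand) encodes the polymerase that starts each new DNA strand. None of the 4 stretches overlaps an exon of GENCODE M21. Mitosis genes could be shown only if the stretch held both TTTGAA and CCAAT, and replication genes only if it held an E2F word. Those matches in the lines were thus fixed by the choice.
Kif11: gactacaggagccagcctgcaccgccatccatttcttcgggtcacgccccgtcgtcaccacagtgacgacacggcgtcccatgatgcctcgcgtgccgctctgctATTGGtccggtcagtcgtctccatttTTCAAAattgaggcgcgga
Smc2: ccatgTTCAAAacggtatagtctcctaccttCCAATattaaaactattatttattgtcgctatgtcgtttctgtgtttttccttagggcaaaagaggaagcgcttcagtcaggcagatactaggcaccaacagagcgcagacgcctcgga
Mcm5: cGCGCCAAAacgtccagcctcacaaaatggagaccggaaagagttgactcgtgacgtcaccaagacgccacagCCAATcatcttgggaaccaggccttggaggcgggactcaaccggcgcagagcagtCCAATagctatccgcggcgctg
Pola1: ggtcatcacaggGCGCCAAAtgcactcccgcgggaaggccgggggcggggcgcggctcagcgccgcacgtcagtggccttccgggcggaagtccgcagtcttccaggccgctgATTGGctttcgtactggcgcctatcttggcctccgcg

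In Kif11 the TTTGAA match begins 19 bases and the CCAAT match 45 bases before the start, and in Smc2 they begin at 145 and 119. The replication promoters shown hold CCAAT as well, at 77 and 22 bases before the start in Mcm5 and at 37 in Pola1, beside an E2F word at 149 and 138. Cdc6, a replication gene that met the same choice and is not shown, held an E2F word at 138 and no CCAAT in its 150 bases. TTTGAA was found in 24 of 33 windows of mitosis genes (72.7%, 30 of the 35 genes having a window), in 4 of 31 windows of replication genes (12.9%) and in 17.8% of all 32544 windows. CCAAT was in 81.8% of mitosis windows, 64.5% of replication windows and 37.4% of all windows. Both words together were in 66.7% of mitosis windows and 6.92% of all. The E2F words were in 10 of 31 replication windows (32.3%), in 0 of 33 mitosis windows and in 1.58% of all. These matches describe the letters and say nothing of what binds there. Kif11 itself was at 249.3 against 4.98 CPM at 2 weeks and 217.1 against 1.42 CPM at 4 weeks, Smc2 at 371.9 against 35.7 CPM and 328.7 against 30.6 CPM, and Pola1 at 95.4 against 4.56 CPM and 86.7 against 5.66 CPM.

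Regulators of entry into S phase were higher in part. Of 16, 8 were called higher in CPM and 2 lower, beside 9.17 and 16.8% of all genes. Their median log2 ratios were 1.20 and 0.98 in CPM. Ccna2, cyclin A2, was at 219.5 against 2.91 CPM at 2 weeks and 200.3 against 1.42 CPM at 4 weeks, and Cdk4, the partner of D-type cyclins, at 264.4 against 75.1 CPM and 292.5 against 81.1 CPM. Among the D-type cyclins, Ccnd1 (log2 ratios -2.48 and -1.36) and Ccnd2 (-1.39 and -1.22) were called lower in CPM. Ccnd3, the D-type cyclin of the thymocyte burst, was at 505.3 against 734.4 CPM and 551.8 against 658.8 CPM, under 2-fold, and had 10.2 against 3.16 UMIs per cell at 2 weeks. On UMIs per cell none of the 16 was called lower, beside 0.0938% of all genes. Of 13 Myc-type growth genes 6 were called higher, with Hspd1, a mitochondrial chaperone, at 483.6 against 106.2 CPM and 481.2 against 133.9 CPM.

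The programme of the thymocyte itself was a smaller share of the RNA in cycling cells, though not a smaller number of molecules. Of 15 double positive stage genes 6 were called lower in CPM and 0 higher, beside 16.8 and 9.17% of all genes, with median log2 ratios of -1.06 and -0.98. On UMIs per cell 8 were called higher and 0 lower, beside 77.7 and 0.0938% of all genes. Their medians of 1.17 and 1.10 on that scale were under the all-gene medians of 1.91 and 1.80. Satb1, a chromatin organiser of thymocytes, was at 1121 against 2659 CPM at 2 weeks and 1060 against 2336 CPM at 4 weeks, but had 22.7 against 11.4 and 18.9 against 9.83 UMIs per cell. Cd4 was at 87.1 against 365.6 CPM and 91.5 against 341.9 CPM, and had 1.76 against 1.57 and 1.63 against 1.44 UMIs per cell. Themis, an adaptor of T cell receptor signalling, Rmnd5a and Cd1d1 were also called lower in CPM. Ptcra, a rule gene, was at 72.3 against 44.4 CPM and 72.4 against 35.8 CPM.

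The recombinase gene Rag1 (ENSMUSG00000061311, chr2:101638282-101649501 in mm10, minus strand), a rule gene, was called lower in CPM. It was at 306.9 CPM in members (298.3 to 315.7) against 1400 CPM in non-cycling thymocytes at 2 weeks, and at 274.6 CPM (258.6 to 291.4) against 1168 CPM at 4 weeks. Its UMIs per cell were nearly equal, 6.22 against 6.02 and 4.90 against 4.92. Dntt, by contrast, was at 935.4 against 1096 CPM and 1007 against 892.3 CPM, and at 18.9 against 4.71 UMIs per cell at 2 weeks and 18.0 against 3.75 at 4 weeks. Rag2 was at 30.6 against 48.5 CPM and 32.4 against 52.4 CPM. Of 10 rearrangement genes with enough UMIs, Rag1 and Dclre1c, the nuclease that opens receptor gene hairpins, were called lower in CPM and 0 higher. This is near the 16.8% of all genes called lower. The list medians were -0.50 and -0.44, beside all-gene medians of -0.33 and -0.28. None of the 10 was called lower on UMIs per cell, beside 0.0938% of all genes.

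Part of the genes of T cell receptor signalling and maturation, and most of those of quiescence, were lower in CPM too. Of 13 signalling genes 5 were called lower (among them Cd5, Fyn, Lcp2 and Ptprc), with 0 of 10 pre-T cell receptor and Notch genes called either way. Of 10 post-selection genes 6 were called lower, with Ccr9, a thymic homing receptor, at 155.1 against 910.4 CPM and 144.7 against 650.8 CPM. Of 12 quiescence genes 10 were called lower. Btg1, an antiproliferative gene, was at 253.5 against 1139 CPM at 2 weeks and 236.7 against 931.4 CPM at 4 weeks. Of 10 survival genes 4 were called lower, among them Bbc3, which promotes cell death, at 10.6 against 51.9 CPM and 8.29 against 32.5 CPM. On UMIs per cell none of these genes was called lower. Among all genes 16.8% were called lower in CPM and 0.0938% on UMIs per cell. Ccr9 had 3.14 against 3.91 UMIs per cell at 2 weeks and 2.58 against 2.74 at 4 weeks.

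**Figure D2:**
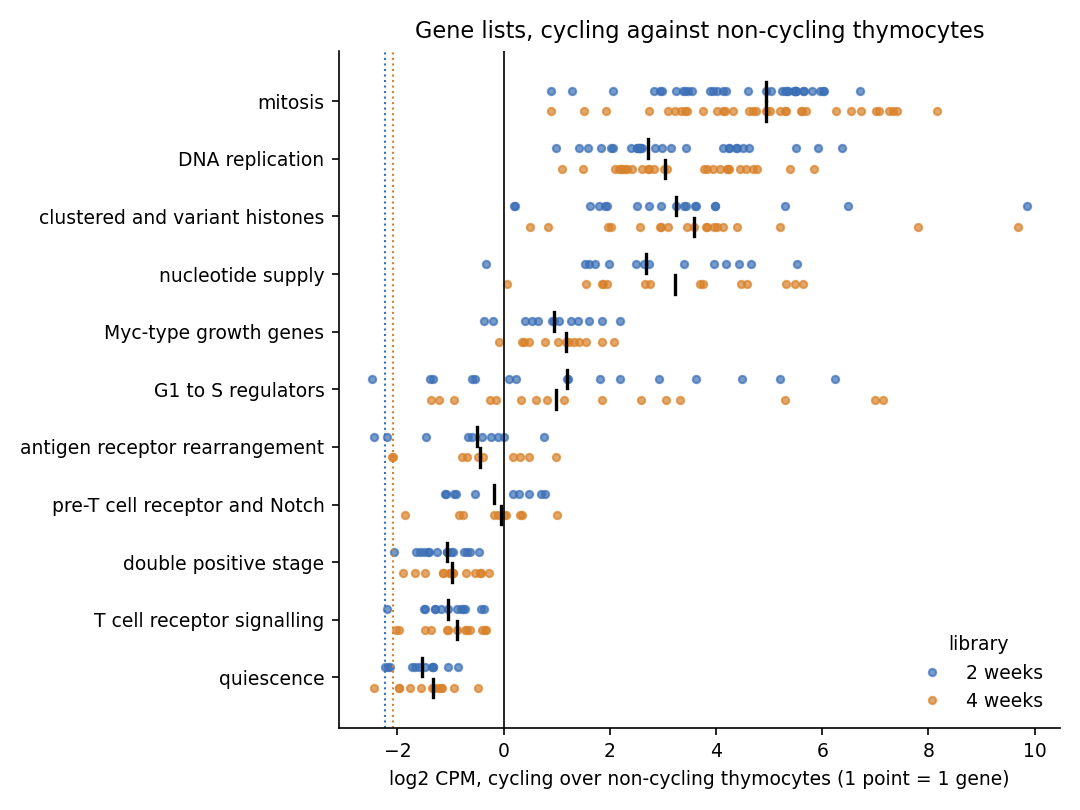
Log2 ratio of CPM in cycling over non-cycling thymocytes (x axis) for each gene (points) of the lists (y axis), with a black bar at the list median, for each library. Dotted lines mark the ratio at which UMIs per cell are equal. Replication, nucleotide, histone and mitosis genes lie far to the right. The double positive, T cell receptor signalling and quiescence lists have medians left of 0 in CPM. Their genes lie mostly right of the dotted lines, where UMIs per cell are higher.

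By the rule for naming, the 10 genes furthest above non-cycling thymocytes were the rule genes Hist1h1b, Top2a and Mki67, followed by Pbk, Esco2, Shcbp1, Hist1h3c, Ccnb1, Hmmr and Kif4. Pbk, a mitotic kinase, was at 114.0 against 0.415 CPM at 2 weeks and 135.2 against 0.472 CPM at 4 weeks. Esco2, which locks sister chromatids together in S phase, was at 124.0 against 0.830 CPM and 108.8 against 0.472 CPM. Those furthest below in CPM were S100a9, S100a8, RP23-428N8.3, Ctss, Tyrobp, Spo11, Tspan32, Adamts5, Cxcl2 and Nav2. S100a8, S100a9, Ctss, Tyrobp and Cxcl2 are genes of neutrophils and other myeloid cells, and the summed neutrophil list was at 43.8 and 11.6 CPM in members and 234.9 and 268.8 CPM in non-cycling thymocytes. The part of such cells or of free RNA in the non-cycling values was not tested. Spo11, known for its breaks in meiotic DNA, was at 7.69 against 69.3 CPM and 6.28 against 50.9 CPM, and had 0 UMIs in other cycling cells of both libraries.

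Gzma, which encodes a granule protease of cytotoxic cells, was the 1 gene called higher among 8 effector T cell genes with enough UMIs. Of the 8, 4 were called lower. Among all genes 9.17% were called higher and 16.8% lower, so 1 of 8 higher is near the share of all genes. Gzma was at 357.5 CPM (348.2 to 367.0) against 145.2 CPM in non-cycling thymocytes at 2 weeks and 330.9 CPM (313.3 to 349.3) against 48.1 CPM at 4 weeks. The cell with the most Gzma held 3.68% of its member UMIs at 2 weeks and 18.0% at 4 weeks. At equal depth 51.6 and 47.8% of members had a Gzma UMI, against 1.82 and 0.688% of cells gated on fibroblast collagens, which should lack it. In members Gzmb was at 7.75 and 6.78 CPM, Ifng at 1.40 and 1.26 CPM, and Foxp3 had 0 and 1 UMI. For Gzmb 1 cell held 96.3% of the UMIs at 4 weeks.

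The members were then divided by Cd4 and Cd8a, which the rule did not use. Each cell was thinned to 6200 UMIs, leaving out 75 and 16 shallower cells, and 702 and 207 cells remained. At 2 weeks 39.3% (35.7 to 43.0%) had UMIs of both genes, 39.3% (35.7 to 43.0%) of Cd8a without Cd4, 20.4% (17.5 to 23.5%) of neither, and 7 cells of Cd4 alone. At 4 weeks the shares were 42.5% (35.7 to 49.5%), 36.7% (30.1 to 43.7%) and 20.3% (15.0 to 26.4%), with 1 cell of Cd4 alone. The intervals of the 2 libraries overlapped for each class. At this depth Cd4 was seen in 40.3 and 43.0% of members and Cd8a in 78.6 and 79.2%, against 0.420 and 0.516%, and 2.24 and 1.76%, of fibroblast-gated cells. A cell without a UMI may still express the gene, so the classes are ranges and not types.

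Cells with neither gene held the most UMIs. Their median before thinning was 34820 UMIs at 2 weeks and 33100 at 4 weeks, against 19940 and 15320 in cells with Cd8a alone and 12490 and 10410 in cells with both. Median genes per cell followed the same order, from 5323 to 4312 to 3670 at 2 weeks and from 5076 to 3671 to 3180 at 4 weeks. Because all cells were thinned to 1 depth, a cell with more UMIs had a smaller part of them read when it was classed.

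Genes of the double positive stage stood higher in cells with both Cd4 and Cd8a than in cells with neither, with cells of Cd8a alone between them. Of 2596 genes with at least 50 thinned UMIs in each library, 251 were called higher in cells with both (9.67%) and 68 lower (2.62%), with all-gene median log2 ratios of 0.24 and 0.25. Of 10 double positive stage genes other than Cd4 and Cd8a, 6 were called higher and 0 lower, with medians of 1.72 and 1.51. Among them were the rule gene Cd8b1 and the genes Bcl2l1, Satb1, Themis and Rmnd5a. Satb1 went from 573 CPM with neither to 1283 with Cd8a alone and 1982 with both at 2 weeks, and from 403 to 1108 to 2025 CPM at 4 weeks. Bcl2l1, a survival gene of double positive cells, went from 11.3 to 55.5 to 105.8 CPM and from 19.2 to 48.8 to 95.3 CPM. Both genes kept the order neither, Cd8a alone, both in each library.

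Rag1 followed the same order, and by number of molecules as well as by share. It went from 122.9 to 291.0 to 651.0 CPM at 2 weeks (log2 ratio of both over neither 2.40, 2.12 to 2.70) and from 115.2 to 314.1 to 599.3 CPM at 4 weeks (2.38, 1.84 to 2.97). Before thinning it had 4.35, 5.16 and 7.86 UMIs per cell at 2 weeks and 2.62, 3.83 and 6.52 at 4 weeks. Ccr9 went from 31.6 to 141.4 to 391.5 CPM and from 23.0 to 142.2 to 388.6 CPM. Dntt went from 782.8 to 921.6 to 1364 CPM and from 921.7 to 1021 to 1558 CPM. Its UMIs per cell were highest with neither, at 26.8, 19.4 and 18.1 at 2 weeks. At 4 weeks they were 24.24, 16.68 and 18.25, lowest with Cd8a alone. Among cells in the S range alone, the log2 ratio of both over neither was 2.11 and 1.97 for Rag1 and 3.19 and 3.04 for Ccr9.

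Part of the growth genes were highest in cells with neither Cd4 nor Cd8a, while the lists of early stages were not called. Of 12 Myc-type growth genes 5 were called lower in cells with both and 0 higher, with medians of -0.99 and -1.12. Of 5 pre-T cell receptor and Notch genes with enough UMIs 0 were called either way, with medians of 0.18 and -0.20. Of the double negative genes Cd24a alone had enough UMIs and was not called, with log2 ratios of -0.11 and -0.59. Srm, which makes spermidine, went from 141.0 to 58.4 to 14.0 CPM at 2 weeks and from 230.4 to 63.7 CPM and then lower again at 4 weeks (log2 ratio of both over neither -4.39). Npm1, a nucleolar protein of ribosome assembly, went from 3312 to 1923 to 875.4 CPM at 2 weeks, and was at 3433 with neither and 954.9 with both at 4 weeks. Fbl, Hspd1 and Hspe1 were the other 3. Cdk6, a G1 kinase, went from 326.0 to 130.9 to 63.1 CPM and from 380.2 to 91.3 to 69.7 CPM. Il2ra, the receptor chain of late double negative cells, was below the UMI minimum after thinning, and before it had 1.71 UMIs per cell with neither, 0.0435 with Cd8a alone and 0.0326 with both at 2 weeks, and 2.33, 0.0263 and 0.0341 at 4 weeks. Gzma belonged to this side, at 526.7, 312.1 and 111.6 CPM and at 495.4, 386.2 and 77.0 CPM. Myl10 and Plac8, chosen after their values were seen, were also highest with neither, Myl10 at 95.9 against 5.84 CPM with both at 2 weeks and Plac8 at 312.4 against 29.2 CPM.

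Inhibitors of the cycle and quiescence genes were highest in CPM in cells with both, although all of these cells were selected as cycling. Of 9 G1 to S regulators 7 were called higher in cells with both and 1, Cdk6, lower. Ccnd3 went from 267.3 to 590.2 to 807.0 CPM at 2 weeks and from 234.3 to 670.6 to 1003 CPM at 4 weeks. Cdkn2d, an inhibitor of Cdk4 and Cdk6, went from 57.5 to 216.8 to 347.7 CPM and from 30.7 to 146.4 to 344.6 CPM. Cdkn1b, the inhibitor p27, went from 104.9 to 203.4 to 320.2 CPM and from 92.2 to 191.0 to 265.8 CPM. Of 7 quiescence genes 5 were called higher, with Btg1 from 110.5 to 254.8 to 493.2 CPM and from 92.2 to 258.9 to 458.2 CPM. Replication genes did not separate the classes, with 0 of 25 called and medians of -0.18 and 0.05. Mitosis genes did, with 23 of 33 called higher in cells with both. Cells with both were also more often in the G2/M range, as given below. Cdkn2d was called higher in that range, at 367.2 CPM against 111.9 CPM in S at 2 weeks and 319 against 121.3 CPM at 4 weeks. The part of position in the cycle in these differences between classes was not tested.

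**Figure D3:**
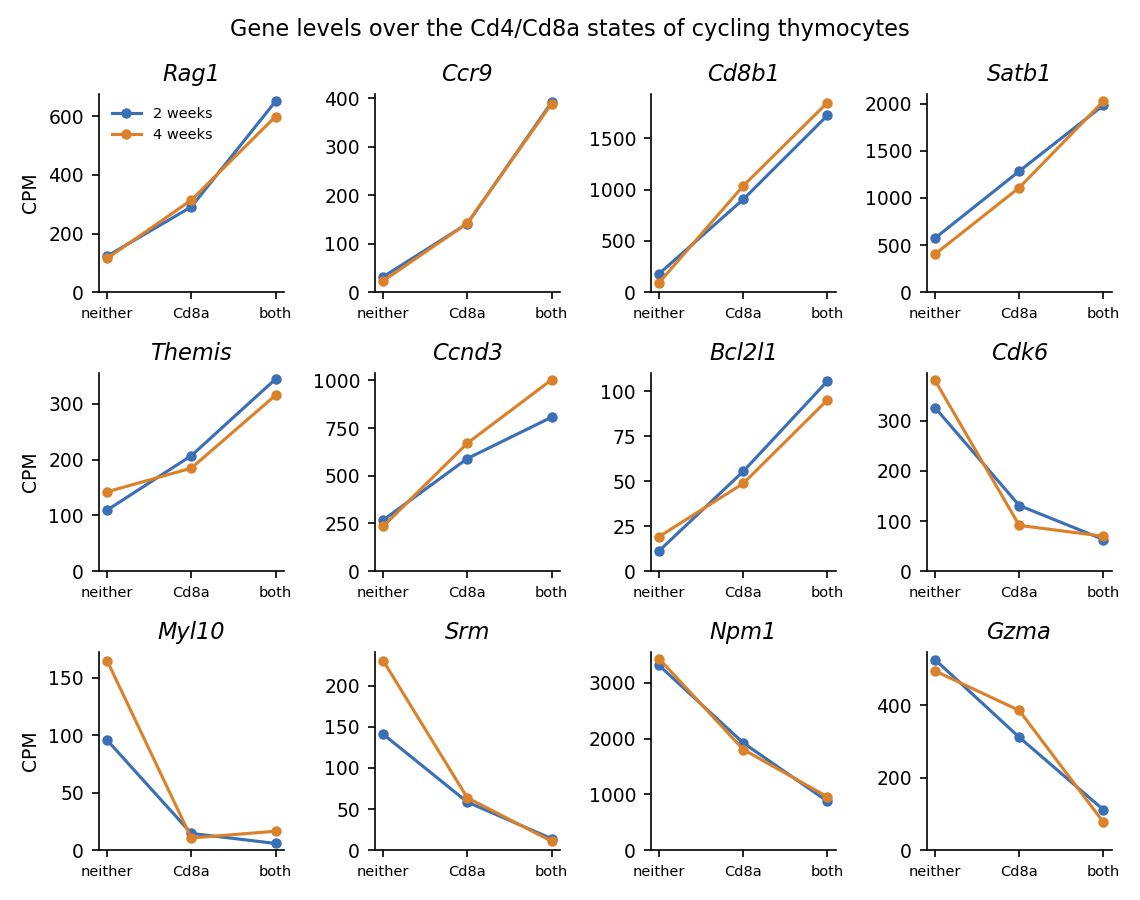
CPM (linear y axis from 0) of 12 genes in members with neither Cd4 nor Cd8a, with Cd8a alone and with both (x axis), thinned to 6200 UMIs, 1 line per library. Rag1, Ccr9, Cd8b1, Satb1, Themis, Ccnd3 and Bcl2l1 are highest with both, and Cdk6, Myl10, Srm, Npm1 and Gzma are highest with neither, in both libraries.

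Position in the cycle was read from the 28 replication and 35 mitosis genes, neither of which holds a rule gene. A thinned cell was placed in the G2/M range when its mitosis sum, divided by the mean over members, exceeded its replication sum treated the same way. This gave 47.9% in the G2/M range at 2 weeks (44.1 to 51.6%) and 43.5% at 4 weeks (36.6 to 50.5%), and 132 and 42 cells lay within 1.5 times of equality. The 2 shares overlap in their intervals. By the larger raw sum the shares were 62.8 and 60.9%, so the level depends on the scaling. The range is a cut through a continuous spread and not a type.

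The G2/M range was fuller in cells with both Cd4 and Cd8a. It held 28.7% of cells with neither (21.4 to 36.8%), 38.0% with Cd8a alone (32.3 to 44.1%) and 67.0% with both (61.1 to 72.6%) at 2 weeks. At 4 weeks it held 23.8% (12.1 to 39.5%), 34.2% (23.7 to 46.0%) and 61.4% (50.4 to 71.6%). The intervals of the cells with both did not overlap the others in either library, while those of the first 2 classes did. In S range cells alone, 24.9 and 29.1% had both Cd4 and Cd8a, lower than the 39.3 and 42.5% of all thinned members. Cells in the S range had medians of 20300 and 15720 UMIs before thinning and those in the G2/M range 15130 and 13290.

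**Figure D4:**
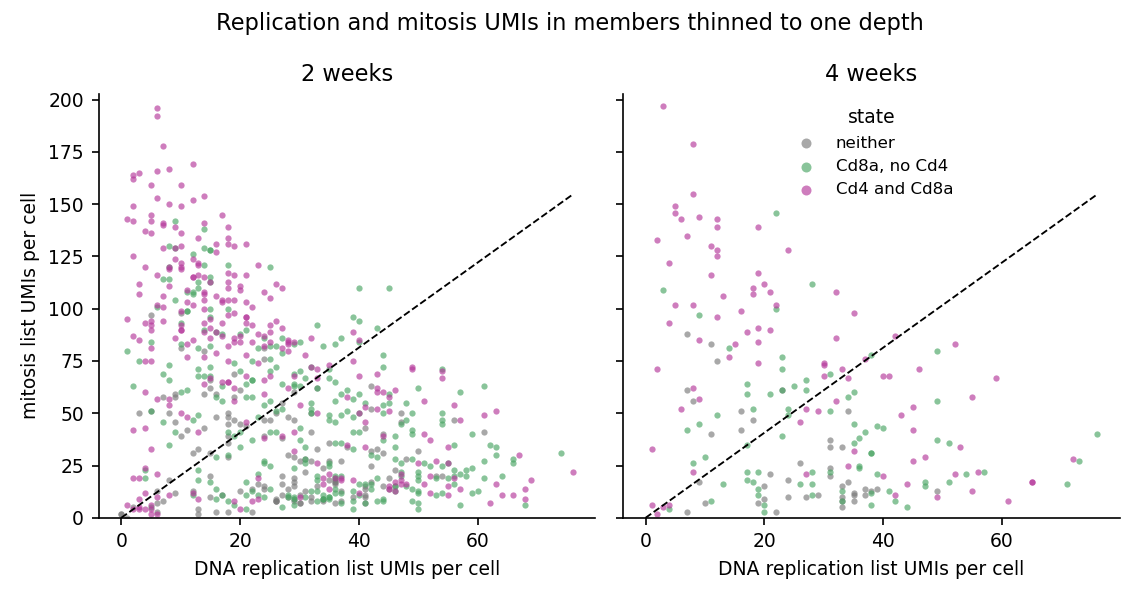
Replication UMIs (x axis) against mitosis UMIs (y axis) of each member thinned to 6200 UMIs, by library, coloured by Cd4 and Cd8a class, with the limit between ranges as a dashed line. Cells with both genes lie mostly above the line at high mitosis UMIs, and cells with neither mostly below it.

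Outside the lists that set the ranges, 3681 genes had enough UMIs, of which 90 were called higher in the G2/M range (2.44%) and 32 lower (0.869%). The higher genes held the rule genes Top2a and Mki67, and genes known from mitosis that the list does not hold, such as Kif4 and Aspm. The lower genes were of mixed kinds. Ung, which removes uracil from DNA, was at 103.1 CPM in S and 3.36 CPM in G2/M at 2 weeks, and at 85.5 and 3.58 CPM at 4 weeks. E2f1, an activator of S phase genes, was at 97.8 against 14.4 CPM and 70.3 against 10.8 CPM, and Ccne2, cyclin E2, at 57.7 against 10.1 CPM and 59.3 against 17.9 CPM. The lower genes also held Tagln, known from smooth muscle, at 70.1 CPM in S and 10.1 CPM in G2/M at 2 weeks and at 78.6 and 0 CPM at 4 weeks. Mgp, a matrix gene of which 1 member held 34.1 and 30.6% of the UMIs before thinning, was at 246.3 against 98.4 CPM and 1952 against 213.3 CPM. Of those higher, Tuba1c, a tubulin, was at 21.6 CPM in S and 233.3 CPM in G2/M at 2 weeks, and at 20.7 and 284.9 CPM at 4 weeks. Fzr1, which turns the anaphase-promoting complex on at mitotic exit, was at 22.5 against 126.7 CPM and 23.4 against 148.7 CPM. These genes were chosen after their values were seen.

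Among thymocyte genes Rag2, Cd4, Cd8a and Ccr9 were also called higher in the G2/M range. Rag2 was at 18.1 CPM in S and 69.1 CPM in G2/M at 2 weeks, and at 31.7 and 68.1 CPM at 4 weeks. Cd4 was at 70.1 against 178.1 CPM and 68.9 against 238.4 CPM. Rag1 was at 247.7 against 566.0 CPM at 2 weeks and 293.6 against 526.9 CPM at 4 weeks, 2-fold only in the first. The ranges and the classes by Cd4 and Cd8a share cells, and within the S range alone Rag1 and Ccr9 differed between classes by the values given above. Ptcra was at 80.7 against 65.3 CPM and 86.9 against 59.1 CPM, under 2-fold.

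Cycling cells of other types gave a second comparison, with 80 cells at 2 weeks and 180 at 4 weeks that met the cycling condition and had 0 UMIs of the thymocyte and T cell genes of the rule, which are therefore at 0 in them by construction. Of 8703 genes, 501 were called higher in members (5.76%) and 656 lower (7.54%), with all-gene medians of 0.23 and 0.09. Of 15 double positive stage genes 12 were called higher. Arpp21, Bcl11b, which fixes the T cell fate, and Aqp11 were among the 10 furthest above by the rule for naming, with Themis, the RNA Dgkeos and the rule genes Dntt, Cd8b1, Cd3g, Cd3d and Rag1. Bcl11b was at 554.7 CPM in members and 2.01 CPM in other cycling cells at 2 weeks, and at 595.2 and 3.31 CPM at 4 weeks. Dgkeos is named as antisense to Dgke, and use of strand in counting is not given in the sources used here. Furthest below were Ciita, Jchain, Blnk, Mzb1, Ly86, Smagp, Cd74, March1, Cybb and Retnla, genes known mostly from B cells and myeloid cells. Cd74, the chain that accompanies class II molecules, was at 90.1 against 6913 CPM and 74.1 against 7737 CPM.

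The cell cycle genes themselves separated members from other cycling cells at 2 weeks much more than at 4 weeks. The median log2 ratio of the mitosis list was 2.33 at 2 weeks and 0.45 at 4 weeks, and that of the replication list 2.56 and 0.42, with 1 of 35 and 3 of 28 called in both libraries. The comparison cells changed in kind: their macrophage list summed to 26510 CPM at 2 weeks and 1958 CPM at 4 weeks, and their B lineage list to 206.8 and 4376 CPM. They had medians of 4 and 13 UMIs of the 3 cycling genes, against 63 and 52 in members.

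Between 2 and 4 weeks the programme of the members differed little. Of 11679 genes with at least 20 UMIs, 486 were at least 2-fold higher at 4 weeks (4.16%) and 380 lower (3.25%). With at least 50 UMIs, 301 of 10234 were higher (2.94%) and 172 lower (1.68%), with a median log2 ratio of -0.04. None of the genes with at least 20 UMIs in the replication, nucleotide, histone, mitosis, rearrangement, pre-T cell receptor, double negative, double positive, signalling, growth, survival and quiescence lists was 2-fold apart. Of 16 G1 to S regulators 1 was, Ccnd1, at 3.05 CPM at 2 weeks and 6.78 CPM at 4 weeks, of which 1 cell held 16.7 and 29.6%. Log2 ratios ran from -0.32 to 0.14 over 35 mitosis genes, from -0.39 to 0.44 over 28 replication genes and from -0.23 to 0.33 over 15 double positive genes. Rag1 had a log2 ratio of -0.16 (-0.26 to -0.07), Dntt 0.11 (0.06 to 0.16) and Ptcra 0.00 (-0.19 to 0.19).

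Some genes of the pre-T cell receptor and Notch list came close to the limit. Hes1, a target of Notch, was at 75.9 CPM at 2 weeks and 40.5 CPM at 4 weeks, a log2 ratio of -0.91 (-1.15 to -0.67). Myc was at 9.65 and 18.3 CPM, a log2 ratio of 0.93 (0.50 to 1.34). None of that list passed it. From the post-selection list, Nr4a1, an early gene of receptor signalling, did, at 94.0 and 46.2 CPM with a log2 ratio of -1.02 (-1.25 to -0.80). In kept cells outside the thymocyte gate Nr4a1 was at 146.6 and 43.6 CPM, so it was lower at 4 weeks there too. Pde4d, a phosphodiesterase, was at 80.04 and 35.4 CPM in members, Gpr171 at 50.3 and 23.1 CPM, Vps37b at 99.5 and 48.5 CPM and Eif2ak3, a kinase of the stress response, at 52.0 and 25.6 CPM.

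Markers of mature T cells went both ways between times. Of 13 post-selection genes 3 were called higher at 4 weeks and 1, Nr4a1, lower, with a median log2 ratio of -0.10, beside 4.16 and 3.25% of all genes with at least 20 UMIs. The 3 higher genes had few UMIs. Ccr7, a lymph node homing receptor, was at 3.30 and 12.6 CPM, S1pr1, the receptor for exit from the thymus, at 1.52 and 5.53 CPM and Zbtb7b, the Cd4 lineage factor, at 1.02 and 2.51 CPM. Of 13 effector T cell genes 2 were called higher, Ccl5 and S100a6, and 1, Ly6c2, lower, with a median of -0.15. Ccl5, a chemokine of effector cells, was at 24.96 and 96.5 CPM, and 1 cell held 46.8% of its UMIs at 2 weeks and 43.8% at 4 weeks. Ccl5 was at 241.5 and 409.9 CPM in kept cells outside the gate.

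Markers of stromal, myeloid and red blood cells differed between times in members. Those furthest above at 4 weeks by the rule for naming were Nupr1, Mgp, Sfrp4, Gsn, Clec3b, Eln, Serpinf1, Ccl5, Serping1 and Pi16, mostly known from fibroblasts and matrix. Mgp, matrix Gla protein, was at 219.3 and 1575 CPM, and 1 member held 34.1 and 30.6% of its UMIs. Of 8 fibroblast genes 5 were called higher, with a median log2 ratio of 1.25 and the summed levels given above. Of the 6 genes furthest below by the same rule, which leaves out haemoglobin and genes under 50 CPM in both libraries, the first was Acta2, smooth muscle actin, at 109.7 and 18.8 CPM, of which 1 cell held 34.0 and 30.7%. Of 10 macrophage genes with enough UMIs 8 were called lower, with a median of -2.13. Of 4 erythroid genes, all of haemoglobin, 4 were called lower, with a median of -3.19, and the list went from 419.5 to 49.8 CPM with the 1 member that held 94.7% of the Hbb-bs UMIs at 2 weeks. With the barcodes of highest doublet score removed (43 and 29 members), 32 genes in place of 301 were called higher and the fibroblast median went from 1.25 to 0.045. Nupr1 then had a log2 ratio of -0.17 in place of 3.09 and Eln -1.92 in place of 2.10, while the macrophage median was -2.10 against -2.13.

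**Figure D5:**
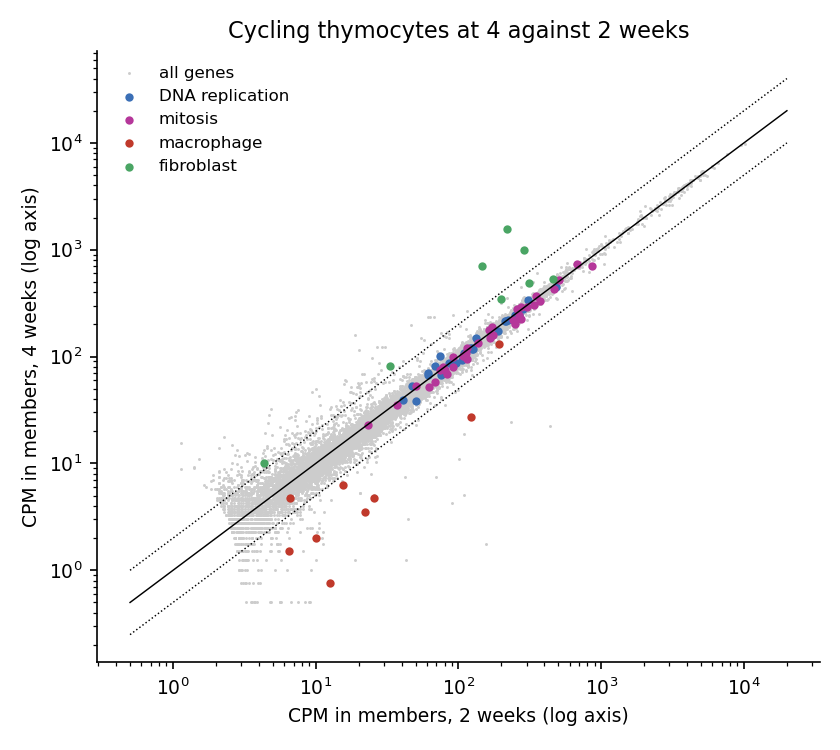
CPM of each gene in members at 2 weeks (x axis) and 4 weeks (y axis), both log axes, with genes at 0 drawn at 0.5 CPM, dotted lines at 2-fold and replication, mitosis, macrophage and fibroblast lists in colour. Replication and mitosis genes lie between the 2-fold lines, most macrophage genes below and most fibroblast genes above them.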

How the data were processed

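Single-cell data of 2 libraries were used as the UMI counts per gene and barcode that the authors deposited. Per the file headers these came from Cell Ranger 4.0.0, and per the submitters' processing notes from mm10, without normalisation. Of 27998 genes, 27645 (98.74%) matched GENCODE M21, which gave positions. Listed barcodes begin near 500 UMIs.

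Barcodes under 300 genes, under 500 UMIs or over 10% mitochondrial UMIs were dropped, while doublets were kept. Summed UMIs of each cell group and library gave CPM, with Poisson intervals that are exact. Ratios have exact conditional binomial intervals and shares Clopper-Pearson intervals, at 95%. A count of 0 was read as 3 counts in ratios. A call is a ratio of at least 2-fold, with at least 50 UMIs per gene (20 for lists between times). There is no test and no p-value, as each time has 1 library.

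Genes were named from 25 lists (315 genes, 314 in the table) and by size: the 10 highest and 10 lowest with at least 50 CPM, leaving out genes that are sex-linked, mitochondrial, of haemoglobin or ribosomal proteins, or unnamed, and genes below 1 part in 10 of the CPM outside the gate. Of 57 eligible between times, 13 were left out by that last limit, leaving 38 higher and 6 lower, all 6 named. Thinning drew UMIs without replacement with seed 1. Members and lists were chosen with earlier results of these data known. The ratio step was tested on simulated data. Work used Python 3.11.15, numpy 2.4.6, pandas 2.3.3, scipy 1.17.1, scanpy 1.11.5 (Scrublet) and matplotlib 3.10.9.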

Additional observations from a re-analysis of the deposited data

Results flagged for a closer look

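A few genes stood on opposite sides in the 2 libraries when members were set against non-cycling thymocytes, and none of these differences was tested. Mgp had a log2 ratio of -2.44 at 2 weeks and 1.96 at 4 weeks, with 1 member holding 34.1 and 30.6% of its UMIs. Eln, elastin, had -1.01 and 2.45, with 1 member holding 22.6 and 43.5%. Haemoglobin genes went the other way: Hbb-bs had 2.91 and -5.13, Hbb-bt 1.89 and -4.92, Hba-a1 2.49 and -5.29, and Hba-a2 2.63 and -5.39. At 2 weeks 1 member held 94.7% of the Hbb-bs UMIs, and at 4 weeks non-cycling thymocytes were at 852.2 CPM of Hbb-bs against 24.4 CPM in members. Near-identical haemoglobin copies can share reads, so their single values are uncertain.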

How the results depend on the processing

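Over 21 main results and 140 comparisons with an alternative, 109 stayed close, 31 moved and 0 reversed. Of 746 for the 102 named genes, 573 stayed close, 168 moved and 5 reversed. Thinning kept cells to 2600 UMIs (531 and 682 shallower cells left out) gave 11.2 and 2.29% members of kept cells. It gave a cycling share at 2 weeks of 40.6%, 33 genes higher between times, 299 higher and 340 lower than non-cycling, 207 higher and 79 lower than other cycling cells, and a histone median of 0.15. A minimum of 5 cycling UMIs gave 13.1% and 42.1% at 2 weeks. A gene minimum of 200 UMIs gave 103 and 40 between times, 504 and 609 against non-cycling, and 264 and 229 against other cycling cells. Centring gave 1181 and 798, and a mean of per-cell CPM 895 lower and a histone median of 0.15. Removing high doublet scores gave 32 genes higher, medians of 0.13 (histone) and 0.045 (fibroblast), and reversed Nupr1 (-0.17), Eln (-1.92) and, against other cycling cells at 2 weeks, Mzb1 (1.70). The larger raw sum gave 62.8 and 60.9% in G2/M.

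Alternatives chosen after seeing the data were UMIs per cell (6625 higher and 8 lower, with S100a9 at 0.0030 and Cxcl2 at 0.28 at 2 weeks), leaving out 12 and 10 top cells (fibroblast median 1.43) and S range only (24.9 and 29.1% with Cd4 and Cd8a). The cause of each move was not tested. No paired analysis was possible because each time has 1 library. Depth limits calls of genes under 50 UMIs.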

Other observations

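Cycling T cells with 0 UMIs of Rag1, Ptcra and Dntt numbered 33 at 2 weeks and 36 at 4 weeks, with medians of 13840 and 13190 UMIs and 11 and 5 UMIs of the 3 cycling genes. Thymocytes with 1 or 2 cycling UMIs, which belong to neither the members nor the non-cycling cells, numbered 350 and 131, with medians of 3864 and 3422 UMIs.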
